A study of Mus musculus with 17 samples.

Results

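Cholesterol synthesis and sterol regulation were followed in mouse epididymal adipose tissue through 26 genes, chosen by symbol for their known function. The genes are 8 of the mevalonate pathway to the isoprenoids, 13 of the steps from squalene to cholesterol, and 5 of sterol sensing and transport. The array annotation held 41 probes for 23 of them, and the expression of Hmgcs1, Fdft1 and Acat2 was not analysed here. Ggps1, the geranylgeranyl diphosphate synthase, had 2 probes that were detected on 0 of 17 arrays. The other 22 genes were measured by 36 probes, among 17166 genes measured in all. Each gene is represented by its brightest measured probe, and these 22 probes were all detected on all 17 arrays. Of the 22 genes, 8 had further measured probes and 14 had 1 probe.

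Total RNA of the tissue was hybridised to 17 Illumina bead arrays to ask how a high-fat diet acts in mice without mast cells and in mice with mutant Kit. All mice had the WBB6F1 background, the cross of WB with C57Bl/6. Cpa3+/+ mice carried the intact gene of the mast cell protease Cpa3. Cpa3Cre/+ mice carried a Cre knock-in at Cpa3, which is known to deplete mast cells and part of the basophils. KitW/Wv mice carried a pair of mutant alleles of Kit, a receptor tyrosine kinase, a genotype known to impair blood-forming cells, germ cells and pigment cells as well as mast cells. For 12 weeks each genotype was fed either a diet with 60% of its calories as fat, here HFD, or the control diet that the labels call LFD and the protocol describes as chow with 6% fat. Tissue was taken after a fast of 5 h. There were 2 Cpa3+/+ HFD arrays and 3 arrays in each of the other 5 groups. The sources used here do not give the age of the mice. Nothing in the labels ties each array to its own animal, and p-values therefore cover only the spread among these arrays, which may in part be technical.

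The adipocyte genes Adipoq, Plin1, Cidec and Lep were detected on all 17 arrays, with levels of 13.58 to 14.02 for Adipoq. Levels throughout are log2 of the background-corrected, quantile-normalized intensity of a probe, and they are not compared between genes. Cpa3 stood at 7.32 to 8.54 on the 5 Cpa3+/+ arrays and at 4.09 to 5.21 on the other 12. The arrays had median deposited intensities of 98.6 to 107.4 and 46.9% to 51.7% of probes detected, and r across genes was 0.94 to 0.99 in the 16 pairs of arrays within groups. Markers of other tissues, B cell genes among them, stood more than 1 log2 unit above their average on 5 arrays. These were B cell genes (3 of 8 measured) on KitW/Wv HFD 1 (2.30, with skeletal muscle genes at 1.81), KitW/Wv HFD 3 (1.14) and KitW/Wv LFD 3 (1.25), skeletal muscle genes on Cpa3Cre/+ LFD 2 (1.38, with mesothelial and epithelial genes at 1.32), and epididymis and testis genes on Cpa3+/+ LFD 3 (4.31). The tests of members, of their probes and of the further pathway genes that passed were repeated without these 5 arrays, which left 1 KitW/Wv HFD array, 2 arrays in each LFD group and all other HFD arrays. The counts of marker lists were not repeated. The B cell genes stood above their average on all KitW/Wv arrays (0.45 to 2.30 on HFD, 0.25 to 1.25 on LFD) and below it on all other arrays. Leaving out these 5 arrays thus took out KitW/Wv arrays by genes that were high throughout that genotype.

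Cells make cholesterol from acetyl-CoA through mevalonate, isoprenoid diphosphates and squalene, whose ring closure gives lanosterol, and further enzymes turn lanosterol into cholesterol. SREBP-2, encoded by Srebf2, switches on genes of this pathway when membranes of the endoplasmic reticulum run low in sterol. SCAP then carries it to the Golgi for cleavage, whereas INSIG proteins hold SCAP back when sterols are plentiful. Adipocytes store much of the body's free cholesterol in their lipid droplets and membranes, and macrophages of fat take up lipid from dying adipocytes.

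Promoter windows were available for 22 of the 26 genes (RefSeq, mouse build GRCm38.p6), 19 of them measured, and 3 measured genes (Fdps, Sqle and Stard4) had none. Each window holds the 250 bases before an annotated transcription start. Those of Insig1, Lss, Sc5d and Dhcr7 are shown because these genes rose with the diet, by their brightest or another probe, in both Cpa3+/+ and Cpa3Cre/+. Capitals mark matches, on either strand, to the sterol regulatory element core CACNCCAC, the CCAAT box (ATTGG or CCAAT), the GC box (GGGCGG) and the E-box (CACGTG), and each sequence is written 5′ to 3′ along the gene's own strand. Dhcr7 has 3 annotated windows, of which the first is given.
Insig1, chr5:28071162-28071411, plus strand: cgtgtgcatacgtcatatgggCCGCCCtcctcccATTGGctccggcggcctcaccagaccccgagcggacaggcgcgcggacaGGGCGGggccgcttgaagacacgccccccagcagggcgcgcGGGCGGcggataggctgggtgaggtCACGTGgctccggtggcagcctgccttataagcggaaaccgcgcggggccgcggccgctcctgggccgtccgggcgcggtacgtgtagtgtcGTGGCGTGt
Lss, chr10:76531355-76531604, plus strand: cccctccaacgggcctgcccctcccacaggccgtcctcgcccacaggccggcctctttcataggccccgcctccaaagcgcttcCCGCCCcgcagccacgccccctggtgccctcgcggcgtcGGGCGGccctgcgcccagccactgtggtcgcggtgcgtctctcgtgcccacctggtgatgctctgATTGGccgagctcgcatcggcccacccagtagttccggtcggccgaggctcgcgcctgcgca
Sc5d, chr9:42264301-42264550, minus strand: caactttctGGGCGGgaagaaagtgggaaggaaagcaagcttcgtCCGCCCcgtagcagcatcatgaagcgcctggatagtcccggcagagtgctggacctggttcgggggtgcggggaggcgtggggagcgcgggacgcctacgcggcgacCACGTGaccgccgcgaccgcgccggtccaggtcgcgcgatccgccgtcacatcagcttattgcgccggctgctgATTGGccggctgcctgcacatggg
Dhcr7, chr7:143822917-143823166, plus strand: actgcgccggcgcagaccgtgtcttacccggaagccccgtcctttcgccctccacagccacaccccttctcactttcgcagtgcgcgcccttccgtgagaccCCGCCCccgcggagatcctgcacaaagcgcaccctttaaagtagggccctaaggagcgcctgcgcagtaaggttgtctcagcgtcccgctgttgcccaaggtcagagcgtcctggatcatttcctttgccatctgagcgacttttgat

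The sterol regulatory element core, the letters bound by SREBP proteins, was found in 1 of 19 measured members with a window. That member was Insig1, where it lies 9 to 2 bases before the start on the opposite strand. Of 11973 measured genes with a window, 6.65% held it. Of the members with a window that were not measured, Acat2 and Hmgcs1 held it and Ggps1 did not. Among all 27025 genes with a window, measured or not, the share was 6.05%. The CCAAT box, bound by the SREBP partner NF-Y, was present in 17 of the 19 members (89.5%) and in 39.4% of measured genes. The GC box, bound by Sp1, another partner, was present in 18 of 19 (94.7%), against 55.8% of measured genes. The E-box was present in 5 of 19 (26.3%), against 8.94%. A gene was counted where any of its windows held a match. Dhcr7 counted for the CCAAT box by window 3 and for the E-box by window 2. Its window shown above holds neither. Scap counted for the GC box and the E-box by window 2 only. No match of one motif overlapped a match of another in the members' windows. A match is a description and not a binding site, and no match says only that the letters are absent from this window.

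**Figure D1:**
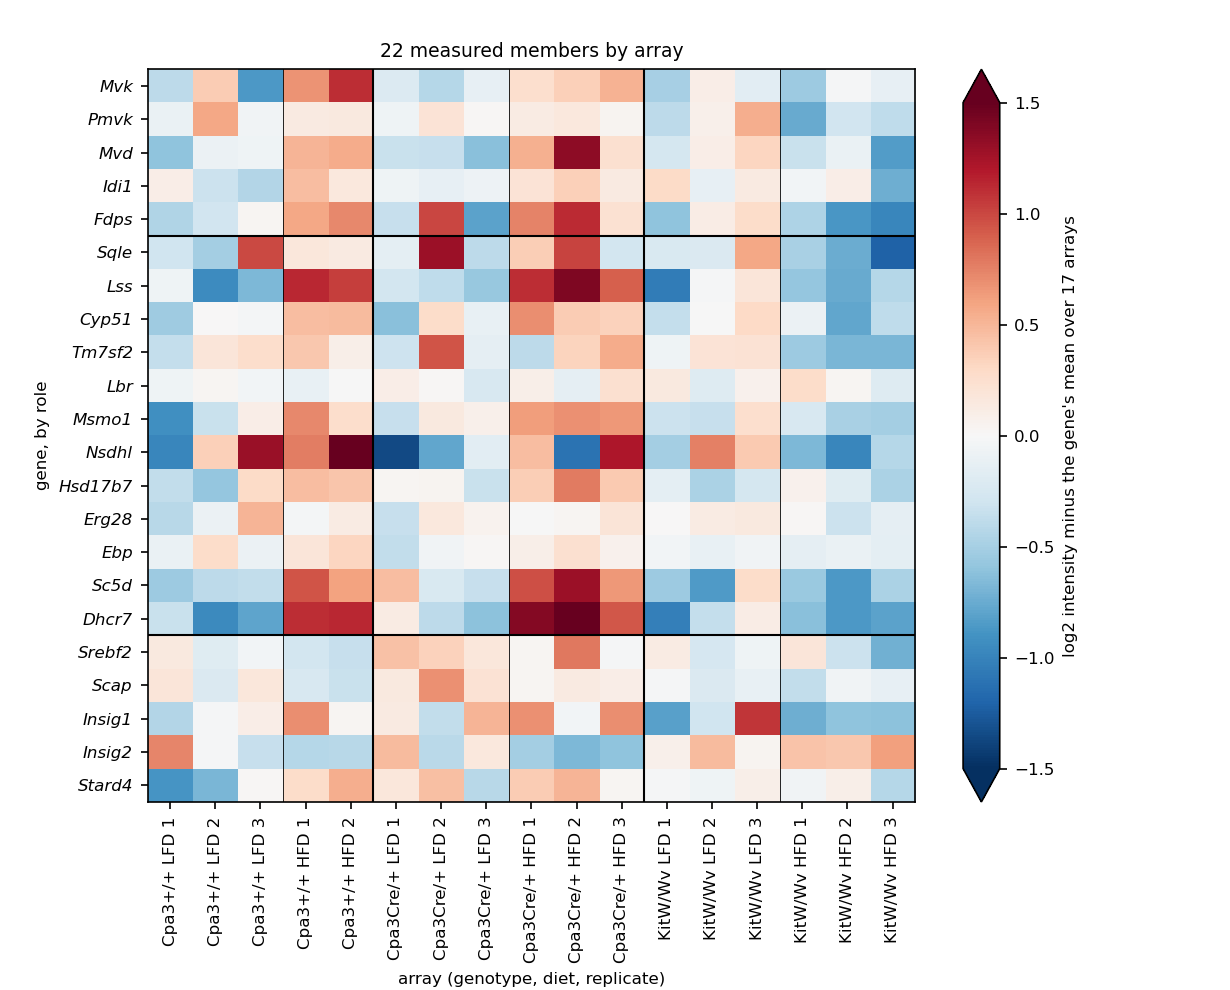
Level of each of the 22 measured members on each of 17 arrays, as log2 intensity minus the gene's mean over the arrays (red above, blue below, colours cut at 1.5). Horizontal lines separate the mevalonate pathway, the steps from squalene and the sterol sensing and transport genes. Lss, Sc5d and Dhcr7 are red on all 5 HFD arrays of Cpa3+/+ and Cpa3Cre/+ and not on the 3 KitW/Wv HFD arrays.

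On the high-fat diet, several cholesterol synthesis genes were higher in Cpa3+/+ and in Cpa3Cre/+ fat, and none passed the test in KitW/Wv fat. In Cpa3+/+, Mvk, Lss, Sc5d and Dhcr7 rose, 2.26-fold to 3.51-fold. In Cpa3Cre/+, Mvd, Lss, Sc5d and Dhcr7 rose, 2.01-fold to 3.31-fold. In KitW/Wv, 19 of 22 members lay below 0, with a median log2 change of -0.28. The 22 members averaged together, as the mean deviation of an array from each gene's average, stood at 0.38 to 0.39 on the Cpa3+/+ HFD arrays and 0.33 to 0.50 on the Cpa3Cre/+ HFD arrays. On the KitW/Wv HFD arrays this mean was -0.46 to -0.29. The LFD arrays stood at -0.31 to 0.00 in Cpa3+/+, -0.17 to 0.09 in Cpa3Cre/+ and -0.28 to 0.20 in KitW/Wv.

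These counts are read against all genes. The test was limma's moderated test over 17 arrays with p adjusted over all 17166 genes (Benjamini-Hochberg, threshold 0.05). In Cpa3+/+, 4 of 22 members were called higher and 0 lower, where 3.44% of all genes were called higher and 1.21% lower. The median log2 change of the members was 0.59, and that of all genes was -0.02. HFD and LFD arrays did not overlap, with HFD higher, in 11 of 22 members and in 17.6% of all genes. In Cpa3Cre/+, 4 members were called higher and 0 lower, against 5.88% and 3.22% of all genes. The median of the members there was 0.34 and that of all genes -0.02, and 10 members did not overlap with HFD higher, against 12.6% of genes. In KitW/Wv, 0 members passed, 2 had an unadjusted p below 0.05 (Pmvk and Tm7sf2), and 0.00583% of genes were called. Arrays of 2 members (Sqle and Tm7sf2) did not overlap with HFD lower in KitW/Wv, against 4.65% of genes.

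**Figure D2:**
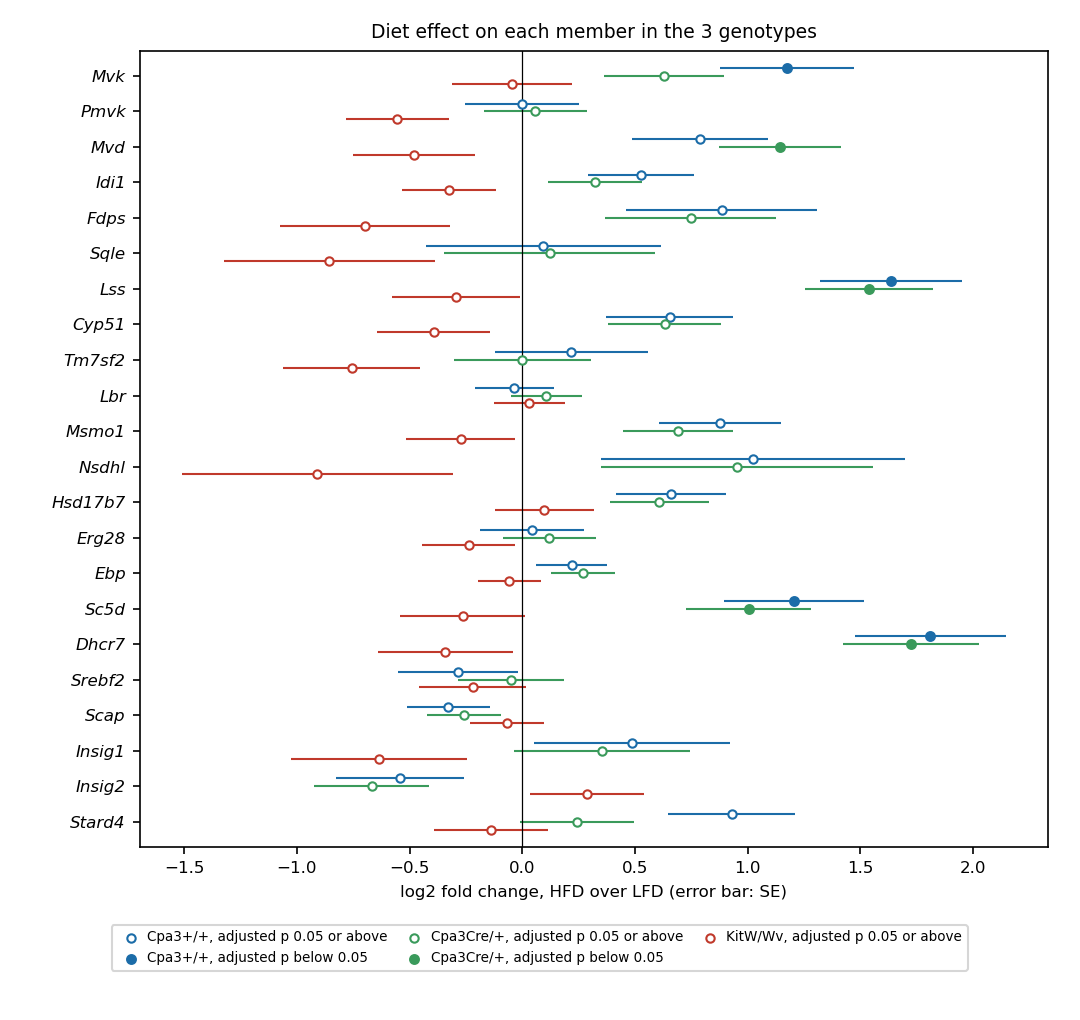
Log2 fold change of HFD over LFD for each of the 22 measured members (points) with its SE (bars) in Cpa3+/+ (blue), Cpa3Cre/+ (green) and KitW/Wv (red), where filled points passed an adjusted p of 0.05. Of 22 members, 17 blue and 18 green points lie to the right of 0, up to 1.81 for Dhcr7, and 19 red points lie to the left.

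The genes of the mevalonate pathway are taken first. Mvk, the kinase that phosphorylates mevalonate, stood at 7.36 and 7.79 on the Cpa3+/+ HFD arrays and at 6.30, 7.07 and 5.83 on the LFD arrays. The groups did not overlap, and Mvk rose by 1.17 ± 0.30 (log2 fold change ± SE, 2.26-fold, adjusted p = 0.0365). In Cpa3Cre/+ it stood at 6.94, 7.05 and 7.21 on HFD and 6.48, 6.26 and 6.57 on LFD, without overlap, and the difference of 0.63 ± 0.27 did not pass (adjusted p = 0.182). In KitW/Wv it stood at 6.14, 6.67 and 6.56 on HFD and 6.19, 6.78 and 6.52 on LFD, with a difference of -0.04 ± 0.27. The call in Cpa3+/+ was kept under 17 of 25 alternatives, and on the deposited normalized intensities the change was 0.69 (adjusted p = 0.0151).

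Mvd, the decarboxylase that forms isopentenyl diphosphate, stood at 6.84, 7.66 and 6.56 on the Cpa3Cre/+ HFD arrays and at 5.98, 5.96 and 5.68 on LFD. All 3 HFD arrays were above all LFD arrays, and Mvd rose by 1.14 ± 0.27 (2.21-fold, adjusted p = 0.0152). On the deposited normalized intensities the change was 0.62 (adjusted p = 0.0153). It stood at 6.82 and 6.87 on the Cpa3+/+ HFD arrays and 5.71, 6.22 and 6.24 on LFD. That difference, 0.79 ± 0.30, did not pass (adjusted p = 0.180), although the groups did not overlap. On KitW/Wv arrays Mvd was 5.97, 6.21 and 5.47 on HFD and 6.04, 6.41 and 6.64 on LFD, a difference of -0.48 ± 0.27 with overlapping groups.

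Fdps makes farnesyl diphosphate, the branch point to sterols, ubiquinone and prenylated proteins. It stood at 10.73 and 10.86 (Cpa3+/+), 10.89, 11.27 and 10.37 (Cpa3Cre/+) and 9.69, 9.27 and 9.17 (KitW/Wv) on HFD. The LFD arrays held 9.70, 9.86 and 10.17 in Cpa3+/+, 9.80, 11.14 and 9.34 in Cpa3Cre/+, and 9.54, 10.26 and 10.42 in KitW/Wv. The 3 KitW/Wv HFD arrays were below every other HFD array, and the Cpa3Cre/+ LFD arrays spread over most of the range. No diet difference of Fdps passed (0.88 ± 0.42, 0.75 ± 0.38 and -0.70 ± 0.38 in the order of the genotypes above). Pmvk, the second kinase of the pathway, and Idi1, the isomerase of isopentenyl diphosphate, passed in none of the 12 comparisons. Idi1 lay between 4.66 and 5.86 over the 17 arrays and Pmvk between 7.48 and 8.81.

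Among the steps from squalene to cholesterol, 3 of 12 measured genes rose in Cpa3+/+ and the same 3 in Cpa3Cre/+. Lss, lanosterol synthase, closes the sterol rings. It stood at 8.62 and 8.52 on the Cpa3+/+ HFD arrays and at 7.42, 6.55 and 6.82 on LFD, and rose by 1.64 ± 0.32 (3.11-fold, adjusted p = 0.00772). The groups stood more than 1 log2 unit apart. In Cpa3Cre/+, Lss was 8.59, 8.89 and 8.38 on HFD and 7.22, 7.10 and 6.92 on LFD, again without overlap, and rose by 1.54 ± 0.28 (2.91-fold, adjusted p = 0.00288). On the KitW/Wv arrays it was 6.91, 6.73 and 7.06 on HFD and 6.44, 7.47 and 7.67 on LFD. That difference was -0.29 ± 0.28, with a 95% interval of -0.90 to 0.31.

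Dhcr7 reduces the last double bond on the way to cholesterol. On the Cpa3+/+ arrays it stood at 7.12 and 7.15 on HFD and at 5.68, 5.06 and 5.22 on LFD, and it rose by 1.81 ± 0.34 (3.51-fold, adjusted p = 0.0059). On the Cpa3Cre/+ arrays it stood at 7.39, 7.99 and 6.95 on HFD and at 6.14, 5.61 and 5.40 on LFD, and it rose by 1.73 ± 0.30 (3.31-fold, adjusted p = 0.00193). HFD and LFD arrays did not overlap in either genotype. On the deposited normalized intensities, Dhcr7 rose by 0.85 in Cpa3+/+ (adjusted p = 0.0101) and 0.94 in Cpa3Cre/+ (adjusted p = 0.00114), about 0.469 and 0.548 times the log2 changes above. On the KitW/Wv arrays it was 5.38, 5.15 and 5.21 on HFD and 4.99, 5.65 and 6.13 on LFD, which overlapped. The difference there was -0.34 ± 0.30, with a 95% interval of -0.99 to 0.30.

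Sc5d, the desaturase that acts just before Dhcr7, stood at 7.71 and 7.37 on the Cpa3+/+ HFD arrays and at 6.23, 6.38 and 6.39 on LFD. It rose by 1.21 ± 0.31 (2.31-fold, adjusted p = 0.0391), and all HFD arrays were above all LFD arrays. In Cpa3Cre/+ it was 7.73, 8.06 and 7.41 on HFD and 7.23, 6.54 and 6.42 on LFD, and it rose by 1.00 ± 0.28 (2.01-fold, adjusted p = 0.0345). One LFD array there came close to the HFD arrays without reaching them. The deposited normalized intensities gave 0.72 (adjusted p = 0.0339) and 0.65 (adjusted p = 0.02) for Sc5d in these genotypes. In KitW/Wv, Sc5d was 6.21, 5.91 and 6.29 on HFD and 6.23, 5.92 and 7.05 on LFD, a difference of -0.26 ± 0.28.

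Cyp51 and Msmo1 act on the methyl groups of lanosterol, Cyp51 removing one and Msmo1 oxidising others. Msmo1 stood at 8.56 and 8.10 (Cpa3+/+), 8.47, 8.52 and 8.49 (Cpa3Cre/+) and 7.60, 7.35 and 7.33 (KitW/Wv) on HFD. The LFD arrays held 6.91, 7.50 and 7.94, then 7.50, 7.99 and 7.92, then 7.52, 7.49 and 8.09 for the same genotypes. HFD and LFD did not overlap in Cpa3+/+ or Cpa3Cre/+, yet the differences of 0.88 ± 0.27 (adjusted p = 0.0864) and 0.69 ± 0.24 (adjusted p = 0.0993) did not pass. Cyp51 stood at 7.52 and 7.54 in Cpa3+/+, 7.76, 7.44 and 7.41 in Cpa3Cre/+, and 6.98, 6.28 and 6.68 in KitW/Wv on HFD. On LFD it stood at 6.52, 7.06 and 7.04, then 6.43, 7.33 and 6.95, then 6.70, 7.05 and 7.36. Its diet differences, 0.65 ± 0.28, 0.63 ± 0.25 and -0.39 ± 0.25, did not pass in any genotype, and the first 2 had no overlap.

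The other genes of these steps passed in no diet comparison by their brightest probe. Hsd17b7, the ketone reductase of the same demethylation, differed by 0.66 ± 0.25 in Cpa3+/+, 0.61 ± 0.22 in Cpa3Cre/+ and 0.10 ± 0.22 in KitW/Wv. Ebp, the sterol isomerase, differed by 0.22 ± 0.16, 0.27 ± 0.14 and -0.06 ± 0.14. Sqle, squalene epoxidase and a control point of the pathway, differed by 0.09 ± 0.52, 0.12 ± 0.47 and -0.86 ± 0.47, with a spread over the 17 arrays from 6.99 to 9.49. Lbr, a sterol reductase that is also a lamin receptor of the nuclear envelope, kept within 8.98 to 9.49 on all arrays and differed by -0.03 ± 0.18, 0.11 ± 0.16 and 0.03 ± 0.16. Tm7sf2, the other enzyme of Lbr's step, and Erg28, known from yeast as a scaffold of the demethylating enzymes, had differences between -0.76 and 0.22 in the 3 genotypes.

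**Figure D3:**
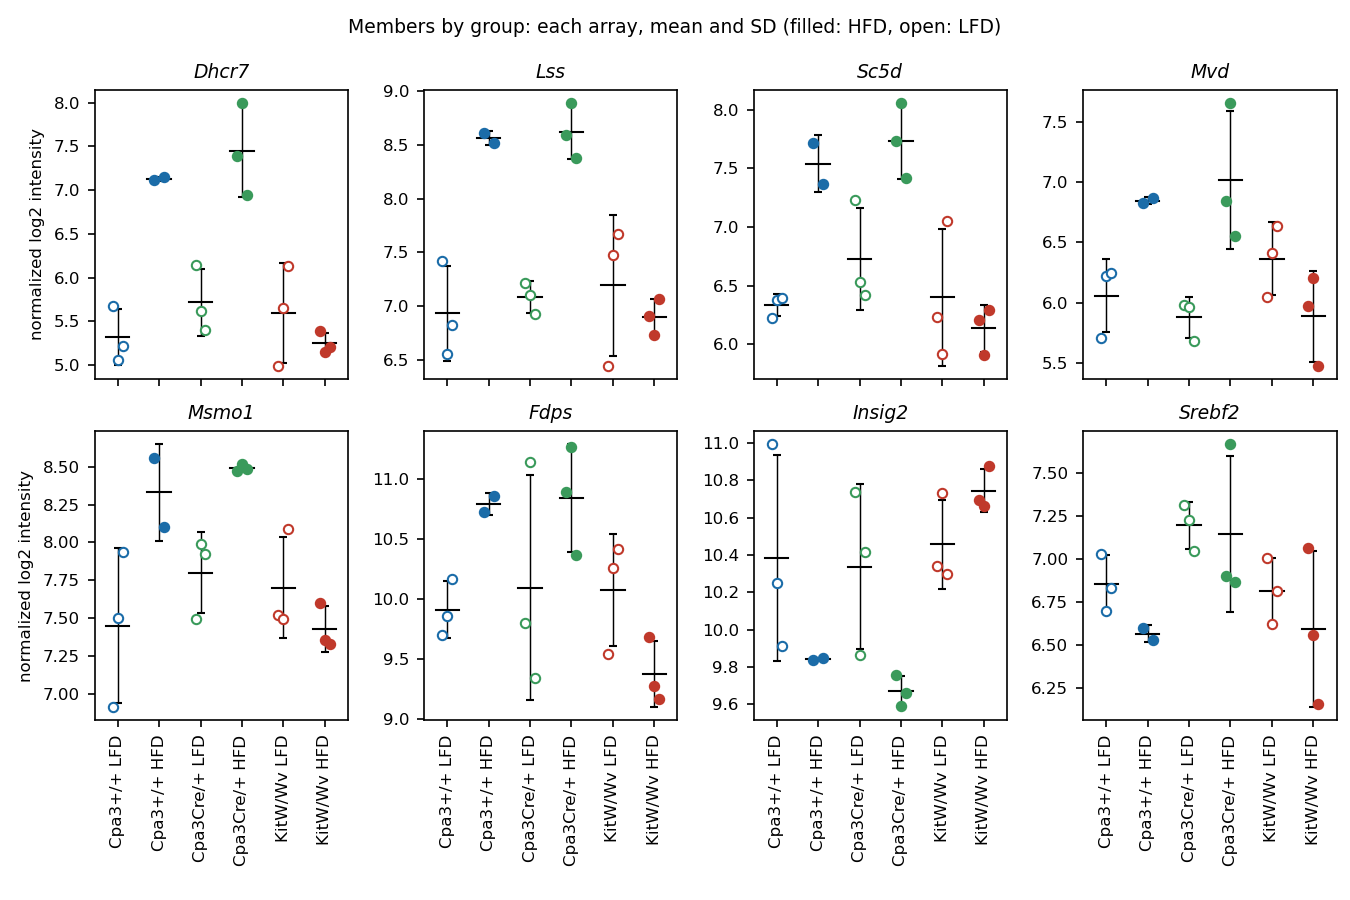
Normalized log2 intensity of 8 members on each array (points) with the mean and SD of each group (bars), LFD open and HFD filled, by genotype. Dhcr7, Lss and Sc5d stand above their LFD arrays on all Cpa3+/+ and Cpa3Cre/+ HFD arrays, and Insig2 stands lower on those arrays than on the 3 KitW/Wv HFD arrays.

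Among the sterol sensing genes, the result for Insig1 depended on the probe. Insig1, which holds SCAP in the endoplasmic reticulum and is itself a known SREBP target, had 4 measured probes. The brightest of them, ILMN_2895388, differed by 0.49 ± 0.44 in Cpa3+/+ and 0.35 ± 0.39 in Cpa3Cre/+ and did not pass. Probe ILMN_1245272 stood at 8.74 and 8.79 on the Cpa3+/+ HFD arrays and at 6.18, 7.17 and 6.49 on LFD. On the Cpa3Cre/+ arrays it stood at 8.76, 8.19 and 8.51 on HFD and at 6.73, 6.49 and 7.39 on LFD. The KitW/Wv arrays held 6.78, 6.25 and 6.99 on HFD and 6.27, 7.30 and 7.61 on LFD, so that only the KitW/Wv groups overlapped. In a fit of all 25594 measured probes, chosen after the data were seen, this probe rose by 2.16 ± 0.39 in Cpa3+/+ (adjusted p = 0.00524) and by 1.62 ± 0.35 in Cpa3Cre/+ (adjusted p = 0.00888). Probe ILMN_2606693 rose by 2.15 ± 0.37 (adjusted p = 0.00429) and 1.62 ± 0.33 (adjusted p = 0.00724), with arrays at 8.69 and 8.60 in Cpa3+/+ HFD and 8.38, 8.19 and 8.39 in Cpa3Cre/+ HFD. It stood at 6.08 to 7.71 on the other 12 arrays. The fourth probe, ILMN_2620965, was detected on 5 arrays and was not called.

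In the fit of probes, 6 of 36 member probes, of 5 genes, were called higher in Cpa3+/+, where 2.86% of all probes were. In Cpa3Cre/+ it was 7 of 36 probes, of 6 genes, against 4.99% of all probes. The genes added to those above were Insig1 in both genotypes and Nsdhl in Cpa3Cre/+. Nsdhl, the dehydrogenase of the demethylating steps, also had 4 probes. Probe ILMN_2958207 stood at 6.91, 7.08 and 7.54 on the Cpa3Cre/+ HFD arrays and at 6.03, 5.96 and 5.70 on LFD, and it rose by 1.28 ± 0.34 (adjusted p = 0.0343), or by 0.71 on the deposited normalized intensities (adjusted p = 0.0307). The brightest probe, ILMN_2594525, was 7.98, 6.41 and 8.73 on those HFD arrays, with the second array among the lowest of all 17, and its difference of 0.95 ± 0.60 did not pass. Probes ILMN_2594521 and ILMN_2725402 followed the brightest probe, with the lowest value of that group on the same array, and were not called. Probe ILMN_2958207, the dimmest of the 4, was the only Nsdhl probe called in any comparison. Which of the probes of Insig1 or Nsdhl follows the transcript more closely was not tested.

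**Figure D4:**
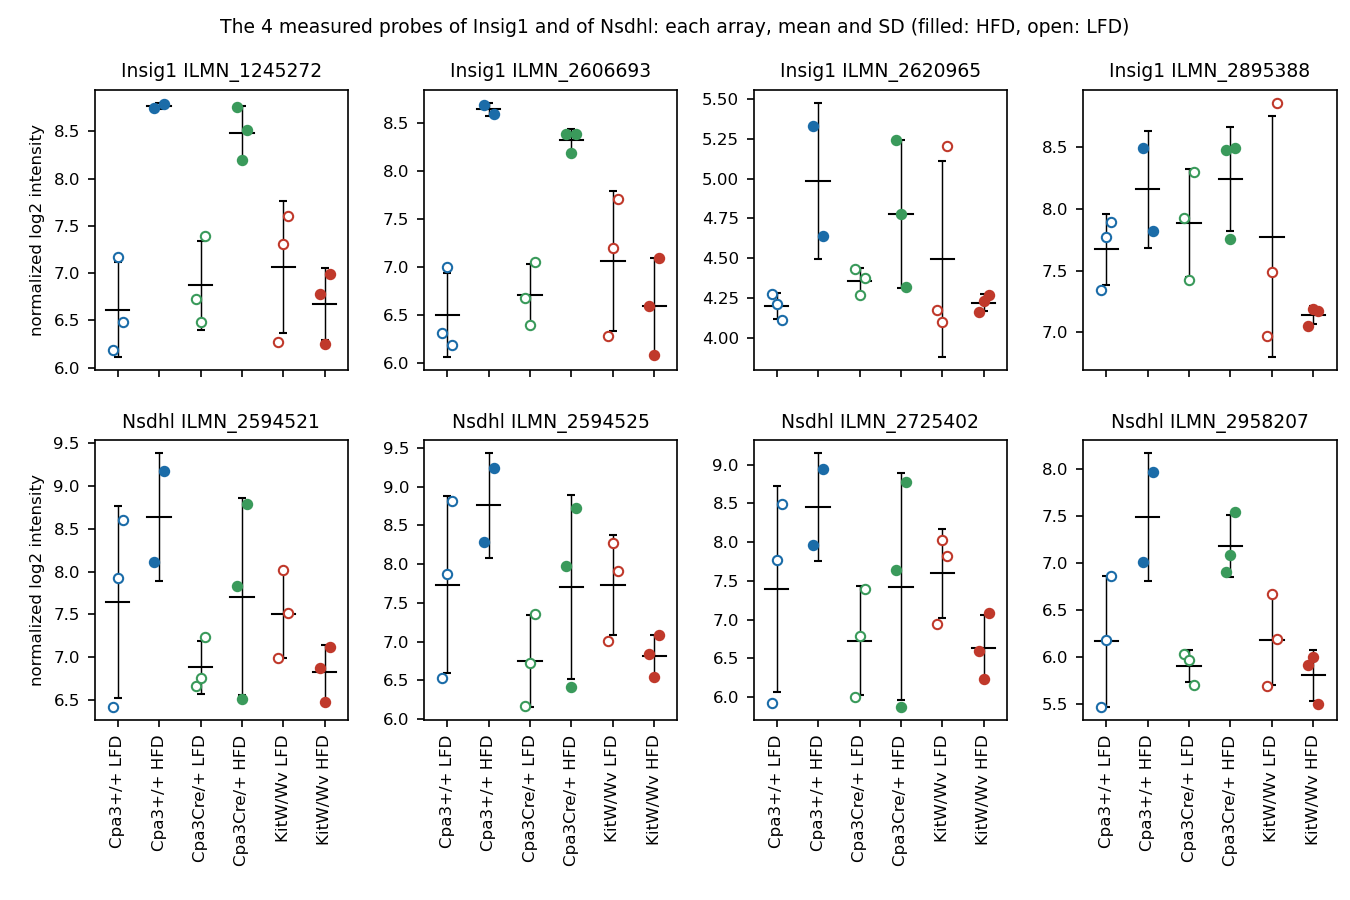
Normalized log2 intensity of the 4 measured probes of Insig1 (top) and of Nsdhl (bottom) on each array, with the mean and SD of each group, LFD open and HFD filled. Probes ILMN_1245272 and ILMN_2606693 of Insig1 separate all HFD arrays of Cpa3+/+ and Cpa3Cre/+ from the other 12 arrays, and the brightest probe, ILMN_2895388, does not.

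Insig2, the second INSIG protein, had 3 measured probes. Its brightest probe stood at 9.84 and 9.85 on the Cpa3+/+ HFD arrays, 9.76, 9.59 and 9.66 on Cpa3Cre/+ HFD, and 10.69, 10.66 and 10.88 on KitW/Wv HFD. On LFD it stood at 10.99, 10.25 and 9.91 in Cpa3+/+, 10.74, 9.86 and 10.42 in Cpa3Cre/+, and 10.34, 10.73 and 10.30 in KitW/Wv. HFD arrays were below LFD arrays without overlap in Cpa3+/+ and Cpa3Cre/+, but the differences of -0.54 ± 0.28 (adjusted p = 0.354) and -0.67 ± 0.25 (adjusted p = 0.132) did not pass. The other probes of Insig2 overlapped between the diets in both genotypes and did not pass, with differences of -0.36 ± 0.35 and -0.63 ± 0.31 for ILMN_1216822 and 0.30 ± 0.36 and 0.16 ± 0.32 for ILMN_1234858, which was detected on 12 arrays. Srebf2 lay between 6.16 and 7.67 over all arrays, and its diet differences were -0.29 ± 0.27, -0.05 ± 0.24 and -0.22 ± 0.24. Scap, the escort of SREBP-2, differed by -0.33 ± 0.18, -0.26 ± 0.16 and -0.07 ± 0.16. The highest HFD array of Scap was just below the lowest LFD array in Cpa3+/+ (6.94 against 6.96) and Cpa3Cre/+ (7.31 against 7.32). Stard4, which carries cholesterol between membranes in the cytosol, differed by 0.93 ± 0.28 in Cpa3+/+ (adjusted p = 0.0831), 0.24 ± 0.25 in Cpa3Cre/+ and -0.14 ± 0.25 in KitW/Wv. None of the 5 sensing and transport genes passed in a diet comparison by its brightest probe.

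The counts in Cpa3+/+ rest on 2 HFD arrays, and without either of them 0 members passed there. Of the 6 probes called, 0 were left without Cpa3+/+ HFD 1 and 1 without Cpa3+/+ HFD 2. Leaving out Cpa3Cre/+ HFD 1, KitW/Wv HFD 3 or Cpa3+/+ LFD 1 gave 2 members in Cpa3+/+. The numbers of all genes and probes called with 1 array left out are not given, here or below. Counts from such fits are therefore not read as results about the members. Among 25 alternatives, which include leaving out each array in turn, the calls in Cpa3+/+ were kept in 23 for Dhcr7, 22 for Lss, 17 for Mvk and 13 for Sc5d. Mvk was also lost without Cpa3+/+ LFD 3, and Sc5d also without Cpa3+/+ LFD 2, Cpa3+/+ LFD 3 or KitW/Wv HFD 1. In Cpa3Cre/+, the calls of Dhcr7 and Lss were kept in all 25, that of Mvd in 22 and that of Sc5d in 19. Leaving out Cpa3Cre/+ HFD 2 or Cpa3Cre/+ LFD 3 gave 2 members and 4 probes in Cpa3Cre/+, since Mvd and Sc5d were lost, and Sc5d was also lost without Cpa3Cre/+ HFD 1 or Cpa3Cre/+ LFD 2. Without the 5 arrays that held markers of other tissues, the calls of Mvk in Cpa3+/+ and of Sc5d and Insig1 probe ILMN_1245272 in Cpa3Cre/+ were lost, and those of Lss and Dhcr7 were kept in both genotypes. In that setting 6 members and 7 probes passed in Cpa3+/+ (946 genes called in place of 798, members' median 0.67), and 5 members and 4 probes in Cpa3Cre/+ (members' median 0.49). The number of all genes called in Cpa3Cre/+ in that setting is not given here, nor are the numbers of all probes. Counts without such a number are not read as results about the members. The call of Nsdhl probe ILMN_2958207 in Cpa3Cre/+ was kept in 16 of 24 alternatives and lost without these 5 arrays or any 1 of the Cpa3Cre/+ arrays. With median scaling of the arrays in place of quantile normalization, 8 members passed in Cpa3Cre/+, and the split of all called genes moved from 1010 higher and 552 lower to 1554 and 239.

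On the high-fat diet, some of these genes were lower in KitW/Wv fat than in the other genotypes. Against Cpa3+/+, 3 of 22 members were lower, where 1.77% of genes were called lower and 0.594% higher. They were Dhcr7, with a log2 difference of -1.88 ± 0.34 (3.68-fold lower, adjusted p = 0.00914), Lss, with -1.67 ± 0.32 (3.18-fold lower, adjusted p = 0.013), and Sc5d, with -1.41 ± 0.31 (2.65-fold lower, adjusted p = 0.0285). The median of the members was -0.88 and that of all genes 0.01. KitW/Wv HFD arrays were below both Cpa3+/+ HFD arrays, without overlap, in 17 of 22 members and in 18.3% of all genes. Of the 36 member probes, 6 fell (5 genes, with 2 probes of Insig1 and 1 of Nsdhl), where 1.45% of all probes did. The Insig1 probes differed by -2.10 ± 0.39 (adjusted p = 0.0117) and -2.06 ± 0.37 (adjusted p = 0.0109), and probe ILMN_2958207 of Nsdhl by -1.69 ± 0.39 (adjusted p = 0.0372). The brighter Nsdhl probes were not called here. No member passed at the gene level without either Cpa3+/+ HFD array (0 and 0 members, 0 and 0 probes), or without the 5 arrays with markers of other tissues (0 members and 1 probe). The last setting leaves 1 KitW/Wv HFD array, and the members' median there was -0.77. On the deposited normalized intensities the differences were -0.89 for Dhcr7 (adjusted p = 0.0124), -0.82 for Sc5d (adjusted p = 0.0274) and -0.95 for probe ILMN_2958207 of Nsdhl (adjusted p = 0.0296). The call of Sc5d was also lost without any 1 of the KitW/Wv HFD arrays, and those of Dhcr7 and Lss were kept in 22 of 25 alternatives.

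Against Cpa3Cre/+ on HFD, 7 of 22 members were lower and 1 was higher in KitW/Wv, where 4.86% of genes were called lower and 2.99% higher. The median of the members was -0.76 and that of all genes 0.00, and 16 members did not overlap with KitW/Wv lower, against 14.5% of genes. The log2 difference was -2.19 ± 0.30 for Dhcr7 (4.57-fold lower, adjusted p = 0.000455), -1.72 ± 0.28 for Lss (3.30-fold lower, adjusted p = 0.00174) and -1.60 ± 0.28 for Sc5d (3.03-fold lower, adjusted p = 0.00254). These 3 calls were kept under all 25 alternatives tried. Of the earlier steps, the difference was -1.47 ± 0.38 for Fdps (adjusted p = 0.028), -1.13 ± 0.27 for Mvd (adjusted p = 0.019), -1.06 ± 0.24 for Msmo1 (adjusted p = 0.0145) and -0.89 ± 0.25 for Cyp51 (adjusted p = 0.0421). Insig2 was higher by 1.08 ± 0.25 (2.11-fold, adjusted p = 0.0177), and its second probe, ILMN_1216822, was higher by 1.15 ± 0.31 (adjusted p = 0.0408), a call kept in 11 of 24 alternatives. The remaining probe, ILMN_1234858, differed by -0.28 ± 0.32 and was not called. Probe ILMN_1216822 stood at 10.10, 10.31 and 10.75 in KitW/Wv against 9.30, 8.78 and 9.63 in Cpa3Cre/+. In the fit of probes 10 member probes, of 9 genes, fell and 2, of Insig2, were higher, against 4.08% and 2.41% of all probes. The Insig1 probes differed by -1.82 ± 0.35 (adjusted p = 0.00527) and -1.73 ± 0.33 (adjusted p = 0.00583), and probe ILMN_2958207 of Nsdhl by -1.38 ± 0.34 (adjusted p = 0.027). Again, the brighter probes of Nsdhl were not called. The deposited normalized intensities gave -1.12 for Dhcr7, -0.97 for Sc5d, -0.61 for Mvd, -0.57 for Cyp51 and -0.74 for that Nsdhl probe, each still past the threshold.

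The count of 8 members became 3 without Cpa3Cre/+ HFD 2, 5 without KitW/Wv HFD 2, 3 without KitW/Wv HFD 3 and 3 without the 5 arrays with markers of other tissues, where 1 KitW/Wv HFD array was left and the members' median was -0.75. The 12 probes became 5 without Cpa3Cre/+ HFD 2 or KitW/Wv HFD 3, 7 without Cpa3Cre/+ HFD 1 or KitW/Wv HFD 2, and 4 without the 5 arrays. Among 25 alternatives the calls were kept in 21 for Mvd and Msmo1, 20 for Insig2, 19 for Fdps and 13 for Cyp51. Mvd and Insig2 were lost without Cpa3Cre/+ HFD 2 or KitW/Wv HFD 3, and Msmo1 also without KitW/Wv HFD 2. Fdps was lost without any of these 3 or Cpa3Cre/+ HFD 1, and also with the mean of its probes. Its second probe, ILMN_1232741, was detected on 5 arrays and averaged 4.42 in KitW/Wv and 4.38 in Cpa3Cre/+ on HFD. Cyp51 was lost without any 1 of 9 arrays, namely the HFD arrays other than KitW/Wv HFD 1, Cpa3Cre/+ LFD 3 and KitW/Wv LFD 2. Median scaling gave 12 members, and moved all called genes from 513 higher and 835 lower to 263 and 1338. The call of Insig2 was lost with median scaling and with the mean of its probes. The comparisons with Cpa3+/+ and with Cpa3Cre/+ share the KitW/Wv arrays, so they are not independent of each other.

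On the control diet, and between Cpa3Cre/+ and Cpa3+/+ on either diet, 0 members passed in limma's test. An unadjusted p below 0.05 was found for Srebf2 (Cpa3Cre/+ against Cpa3+/+ on HFD), Stard4 (the same genotypes on LFD) and Scap (KitW/Wv against Cpa3Cre/+ on LFD), and for 0 members between KitW/Wv and Cpa3+/+ on LFD. Of all genes, 0.0408% and 0.035% were called between Cpa3Cre/+ and Cpa3+/+ on HFD and LFD, and on LFD 0.0466% between KitW/Wv and Cpa3+/+ and 0% between KitW/Wv and Cpa3Cre/+. For Dhcr7, KitW/Wv minus Cpa3+/+ on LFD was 0.27 ± 0.30 (95% interval -0.37 to 0.92), and Cpa3Cre/+ minus Cpa3+/+ on HFD was 0.31 ± 0.34 (-0.41 to 1.03). For Lss the same values were 0.26 ± 0.28 (-0.34 to 0.87) and 0.05 ± 0.32 (-0.62 to 0.73). 

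The difference between the diet effects was tested directly as an interaction. In KitW/Wv against Cpa3+/+, the diet effect was lower for 2 of 22 members, where 0.798% of genes were called lower and 0.0874% higher. The interaction of Dhcr7 was -2.15 ± 0.45 (adjusted p = 0.0393) and that of Lss -1.93 ± 0.42 (adjusted p = 0.0495). The members' median was -1.01 and that of all genes 0.01. In KitW/Wv against Cpa3Cre/+, 3 members were called lower, where 2.09% of genes were called lower and 0.449% higher. They were Dhcr7 at -2.07 ± 0.43 (adjusted p = 0.0158), Lss at -1.83 ± 0.40 (adjusted p = 0.0227) and Mvd at -1.62 ± 0.38 (adjusted p = 0.0353). The members' median there was -0.72 and that of all genes 0.03. Of the member probes, 3 and 5 were called lower in these interactions, against 0.637% and 1.72% of all probes, and both Insig1 probes were among them each time.

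Neither interaction kept a called member without the 5 arrays that held markers of other tissues (0 and 0 members). That setting leaves 1 KitW/Wv HFD array, and the members' medians there were -0.84 and -0.58, with Dhcr7 at -1.93 and -1.84. On the deposited normalized intensities the interaction of Dhcr7 was -0.98 with Cpa3+/+ (adjusted p = 0.0585, a call lost) and -1.08 with Cpa3Cre/+ (adjusted p = 0.0125), and that of Mvd was -0.84 (adjusted p = 0.0414). The interaction with Cpa3+/+ also gave 0 members without Cpa3+/+ HFD 1, Cpa3+/+ HFD 2, Cpa3Cre/+ HFD 1, Cpa3+/+ LFD 3, KitW/Wv LFD 2, KitW/Wv LFD 3 or any KitW/Wv HFD array, and 1 without Cpa3Cre/+ HFD 2, Cpa3Cre/+ HFD 3, Cpa3+/+ LFD 2 or any Cpa3Cre/+ LFD array. Of 25 alternatives, 4 kept the call of Lss and 10 that of Dhcr7. The interaction with Cpa3Cre/+ gave 1 member without Cpa3Cre/+ HFD 1, Cpa3Cre/+ HFD 2, Cpa3Cre/+ LFD 3, KitW/Wv LFD 2 or KitW/Wv LFD 3. Of 25 alternatives, 24 kept the call of Dhcr7 there, 18 that of Lss and 12 that of Mvd. The 3 and 5 probes fell to 0 and 0 without KitW/Wv LFD 3, and over all left-out arrays their counts ran from 0 to 4 and 0 to 5. For Cpa3Cre/+ against Cpa3+/+, 0 members and 0% of genes were called, and 0 members had an unadjusted p below 0.05. The diet effects differed by -0.09 ± 0.45 for Dhcr7 (95% interval -1.05 to 0.88), -0.10 ± 0.42 for Lss (-1.01 to 0.81) and -0.20 ± 0.42 for Sc5d (-1.09 to 0.69).

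Within the groups, some arrays held the highest or the lowest value for many of the members. KitW/Wv LFD 3 held the highest value of its group for 13 of 22 members and the lowest for 1, and Cpa3Cre/+ HFD 2 held the highest for 14 of 22. Cpa3+/+ LFD 1 held the lowest value of its group for 13 of 22 members. These counts were the largest of any array, and the same counts over all genes are not given. Whether the members moved apart from other genes on these arrays was not tested. The pooled SD within groups ran from 0.14 for Ebp and 0.17 for Lbr to 0.64 for Sqle and 0.83 for the brightest Nsdhl probe, and it was 0.40 for Dhcr7, 0.37 for Lss and 0.36 for Sc5d.

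Markers of cell types were read in the same comparisons. Of 12 macrophage markers, 8 rose with the diet in Cpa3+/+ (median log2 change 1.84), 11 in Cpa3Cre/+ (2.56) and 0 in KitW/Wv (0.09). Their mean deviation was 1.02 to 1.12 and 1.46 to 1.56 on the HFD arrays of Cpa3+/+ and Cpa3Cre/+, -0.18 to 0.02 on KitW/Wv HFD, and -1.18 to -0.44 on the LFD arrays. Of 12 genes of dividing cells, 9 were measured, and 7, 9 and 0 of them rose with the diet in Cpa3+/+, Cpa3Cre/+ and KitW/Wv. Of all genes, 3.44% were called higher with the diet in Cpa3+/+, 5.88% in Cpa3Cre/+, and 0.00583% in either direction in KitW/Wv. The adipocyte markers, 10 of 12 measured, had mean deviations of -0.29 to -0.07 on the HFD arrays of the first 2 genotypes and -0.06 to 0.18 on KitW/Wv HFD. With the diet, 1 of them rose in Cpa3+/+, and 1 rose and 2 fell in Cpa3Cre/+, where 3.22% of genes fell. On HFD, 1 was higher in KitW/Wv than in Cpa3Cre/+. The stromal progenitor markers had 0.17 to 0.74 on the HFD arrays of Cpa3+/+ and Cpa3Cre/+ and -0.46 to -0.04 on KitW/Wv HFD. Of these 8 markers, 2 rose with the diet in Cpa3Cre/+. On HFD, 3 were lower in KitW/Wv than in Cpa3Cre/+, where 4.86% of genes were called lower. In the interaction of these genotypes 1 was lower. Of 3 measured B cell genes, 2 were called higher in KitW/Wv than in Cpa3+/+ and in Cpa3Cre/+ on HFD (medians 2.05 and 2.03) and 0 on LFD (medians 1.64 and 1.69). Of all genes, 0.594% and 2.99% were called higher in these HFD comparisons, and 0.0466% and 0% in either direction on LFD. The mean deviation of the B cell genes was 0.45 to 2.30 on the KitW/Wv HFD arrays, -0.65 to -0.45 on Cpa3+/+ HFD and -0.73 to -0.45 on Cpa3Cre/+ HFD. On LFD it was 0.25 to 1.25 in KitW/Wv, -0.80 to -0.05 in Cpa3+/+ and -0.70 to -0.35 in Cpa3Cre/+. The part of these cells in the members' values was not tested, and in whole tissue fewer cells of a type and less RNA per cell cannot be told apart. Fatty acid synthesis genes, listed as targets of the related factor SREBP-1c and of another factor, ChREBP, were called in 0 of 12 measured in each diet comparison. Their medians were -0.25, -0.06 and -0.44. On HFD, 1 was called higher and 1 lower in KitW/Wv than in Cpa3Cre/+, against 2.99% and 4.86% of all genes.

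**Figure D5:**
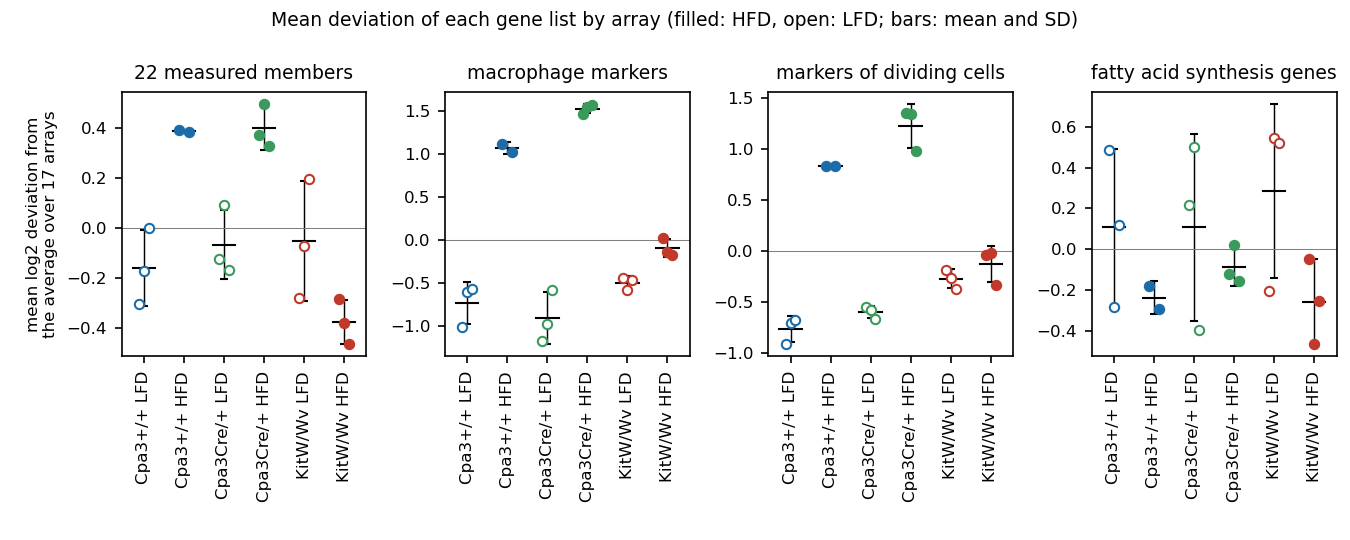
Mean log2 deviation of 4 gene lists from their average over 17 arrays, on each array (points) with the mean and SD of each group, LFD open and HFD filled. Members, macrophage markers and markers of dividing cells stand above 0 on all 5 HFD arrays of Cpa3+/+ and Cpa3Cre/+, whereas fatty acid synthesis genes stand at -0.29 to 0.02 there.

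Of 34 further genes of the pathway, 11 of the isoprenoid branch and 18 of sterol regulation and uptake were measured. In the isoprenoid branch, 0 of 11 passed for the diet in Cpa3+/+ and KitW/Wv. In Cpa3Cre/+, Nus1, a subunit of the enzyme that makes dolichol precursors, rose by 0.94 ± 0.27 (adjusted p = 0.045), and Aacs, which activates acetoacetate for lipid synthesis, fell by 0.63 ± 0.17 (adjusted p = 0.0317). Of the 18 genes of sterol regulation and uptake, 1 rose in Cpa3+/+, 4 in Cpa3Cre/+ and 0 in KitW/Wv. Of all genes, 3.44% were called higher in Cpa3+/+, 5.88% higher and 3.22% lower in Cpa3Cre/+, and 0.00583% in either direction in KitW/Wv. Tmem97, an endoplasmic reticulum protein tied to the cholesterol carrier NPC1, rose by 0.77 ± 0.20 in Cpa3+/+ (adjusted p = 0.04) and 0.95 ± 0.18 in Cpa3Cre/+ (adjusted p = 0.00351). It stood at 8.27 and 8.24 on the Cpa3+/+ HFD arrays, 8.19, 8.84 and 8.27 on Cpa3Cre/+ HFD, and 7.26 to 7.82 on the other 12 arrays. In Cpa3Cre/+, the lipid carriers Stard3 and Stard5 rose by 1.12 ± 0.16 (adjusted p = 0.00038) and 0.99 ± 0.21 (adjusted p = 0.00817), and the endocytic receptor Lrp1 by 0.76 ± 0.22 (adjusted p = 0.0393). Of 25 alternatives, the calls of Stard3 and Stard5 were kept in all, that of Tmem97 in Cpa3Cre/+ in 24, and those of Aacs, Lrp1 and Nus1 in 16, 13 and 8. The call of Tmem97 in Cpa3+/+ was kept in 11. Without the 5 arrays with markers of other tissues, the calls of Nus1, Aacs and Lrp1, and of Tmem97 in Cpa3+/+, were lost. Leaving out 1 array lost Nus1 for 13 of 17 arrays, Tmem97 in Cpa3+/+ for 10 and Lrp1 for 9, and lost Aacs for each Cpa3Cre/+ array other than HFD 2.

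Against Cpa3Cre/+ on HFD, KitW/Wv was lower for 3 of these 18 genes and for 0 of the 11, where 4.86% of all genes were called lower. The difference was -0.97 ± 0.16 for Stard3, which sits on late endosomes (adjusted p = 0.00193), -0.88 ± 0.22 for Lrp1 (adjusted p = 0.0211) and -0.76 ± 0.18 for Tmem97 (adjusted p = 0.0173). Stard3 was also the 1 gene of the 18 with a called interaction, -1.11 ± 0.23 against Cpa3Cre/+ (adjusted p = 0.0156), where 2.09% of all genes were called lower. Its arrays stood at 8.68, 9.03 and 8.42 on Cpa3Cre/+ HFD and at 7.71, 7.83 and 7.68 on KitW/Wv HFD, and all LFD arrays lay within 7.47 to 7.89. These 4 calls were lost without the 5 arrays with markers of other tissues, which leaves 1 KitW/Wv HFD array, with values of -0.88, -0.84 and -0.80 for Stard3, Lrp1 and Tmem97 and -1.12 for the interaction. Tmem97 was also lost without Cpa3Cre/+ HFD 2, KitW/Wv HFD 2 or KitW/Wv HFD 3, and Lrp1 without Cpa3Cre/+ HFD 1, Cpa3Cre/+ HFD 2, KitW/Wv HFD 1 or KitW/Wv HFD 2.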

How the data were processed

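Total RNA of epididymal fat was measured on 17 Illumina arrays. Per the file headers, the authors deposited for each probe a non-normalized intensity on a linear scale and a detection p-value, whose computation the sources used here do not give. They also deposited normalized intensities, used here as an alternative only, made by a method that no source used here states. Per the submitters' processing notes, GenomeStudio was used.

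Background was estimated from intensities and detection p-values (neqc of limma 3.58.1 in R 4.3.3, offset 16), arrays were quantile normalized, and log2 values were taken from these deposited intensities. This subtraction widens fold changes of dim probes. A probe was kept if its detection p was under 0.05 on 2 arrays or more, and the brightest probe stood for its gene. Probe symbols came from the platform annotation, updated by Entrez ID. One mean per group was fitted to all 17 arrays with limma's moderated test (11 residual and 3.34 prior degrees of freedom), giving 12 comparisons, with Benjamini-Hochberg adjustment over 17166 genes and a threshold of 0.05. The precision is limited by the number of arrays.

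The members, gene lists and tests were chosen with earlier results of these data known. All 26 members are named, and those that passed in any comparison are given array by array. The context lists hold 14 genes of the isoprenoid branch and 20 of sterol regulation, and a context gene is named where it passed. The alternatives were median scaling, the deposited normalized intensities, only the groups compared, no or a stricter filter, a replicate block, the mean of a gene's probes, and each array left out. The fit of 25594 probes and the setting without 5 arrays were added after seeing the data. Deviations from the group means had a median r of 0.07 over 40 pairs of same-numbered arrays (-0.47 to 0.36, 16 above 0.1). Over 80 pairs of arrays with different numbers it was -0.03 (-0.43 to 0.54, 21 above 0.1). The labels do not say what a number marks, and the numbers were not taken as pairs. Python 3.11.15 with matplotlib 3.10.9 drew the figures.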

Additional observations from a re-analysis of the deposited data

Results flagged for a closer look

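The diet effect differed between genotypes, by an interaction test, for 6 items. Against Cpa3+/+, the effect in KitW/Wv was lower by 1.93 for Lss and by 2.15 for Dhcr7 on the log2 scale (-1.93 and -2.15). For Insig1 it was -2.55 by probe ILMN_1245272 and -2.62 by probe ILMN_2606693. Against Cpa3Cre/+, it was -1.62 for Mvd, -1.83 for Lss, -2.07 for Dhcr7 and -1.11 for Stard3, and -2.01 and -2.09 for the same Insig1 probes. In each case the level stood higher on HFD than on LFD on average in the other genotype, and the KitW/Wv means differed by less than 1 log2 unit between diets. The adjusted p-values (limma) lay between 0.0156 and 0.0495.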

How the results depend on the processing

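No call of a member, a member probe or a further pathway gene changed sign under any alternative run, and the counts of marker lists were not recomputed. Of 24 calls of members by their brightest probe, 5 passed under every alternative: Lss and Dhcr7 for the diet in Cpa3Cre/+, and Lss, Sc5d and Dhcr7 for KitW/Wv against Cpa3Cre/+ on HFD. Of 39 calls of member probes, 7 passed throughout, and of 11 calls of further genes, 2 did. The causes of the changes below were not tested, apart from the smaller number of arrays where arrays were left out.

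Member counts moved as follows. With a fit to the compared groups alone, the diet in Cpa3+/+ gave 1 member and 0 probes, with 127 genes called in place of 798, and the diet in Cpa3Cre/+ gave 2 members, with 767 genes in place of 1562. In the same setting KitW/Wv against Cpa3+/+ on HFD gave 6 members, and the interactions gave 1 member and 1 probe (with Cpa3+/+) and 3 probes (with Cpa3Cre/+). The numbers of all genes called in these comparisons are not given here, so the counts are not read as results about the members. Median scaling gave 8 members and 11 probes for the diet in Cpa3Cre/+, where it moved the median of all genes from -0.02 to 0.09, and 0 members for the interaction with Cpa3+/+ (89 genes called in place of 152). For that interaction the deposited normalized intensities gave 1 member, the mean of a gene's probes 1, and no filter 0 members and 1 probe. Without the filter, the interaction with Cpa3Cre/+ gave 2 probes. On the deposited normalized intensities, log2 changes of the members' calls were 0.456 to 0.93 times those reported.

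The setting without the 5 arrays that stood apart leaves 1 KitW/Wv HFD array, taken to spread as the other groups did. The numbers of all probes called in this setting are not given here, so its counts of probes are not read as results about the members. There, the diet in Cpa3Cre/+ gave 4 probes, KitW/Wv against Cpa3+/+ on HFD gave 0 members and 1 probe (76 genes called in place of 405), and KitW/Wv against Cpa3Cre/+ on HFD gave 3 members and 4 probes (496 in place of 1348). Both interactions gave 0 members and 0 probes (54 and 177 genes called in place of 152 and 436). The members' medians in these 4 comparisons with KitW/Wv were -0.77, -0.75, -0.84 and -0.58, in place of -0.88, -0.76, -1.01 and -0.72.

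With a replicate block, the interaction with Cpa3+/+ gave 0 members (96 genes called) and the interaction with Cpa3Cre/+ 3 probes. The other counts stayed within 1.5 times. The labels do not say what a replicate number marks, so the block shows nothing about the size of an effect.

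With 1 array left out at a time, the counts of members ranged from 0 to 5 (diet in Cpa3+/+), 2 to 5 (diet in Cpa3Cre/+), 0 to 4 (KitW/Wv against Cpa3+/+ on HFD), 3 to 9 (against Cpa3Cre/+ on HFD), 0 to 2 (interaction with Cpa3+/+) and 1 to 3 (interaction with Cpa3Cre/+). The counts of probes ranged from 0 to 8, 4 to 7, 0 to 7, 5 to 12, 0 to 4 and 0 to 5 in the same order. Where a Cpa3+/+ HFD array was left out, the lone one left was taken to spread as the remaining groups did. The numbers of all genes and probes called in these fits are not given here, so the ranges are not read as results about the members. A slide block was not run, since the headers name no slides.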
